A study of Mus musculus with 6 samples.

Results

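Fibronectin, the fibulins and the elastic fibre proteins form the compliant part of the extracellular matrix, and their transcripts were followed in cochleae (the coiled organs of hearing) of young and older mice. The group held 9 genes: Fn1, Fbln1, Fbln2, Fbln5, Eln, Fbn1, Mfap2, Mfap5 and Tnc. Its measurements were all probe sets (small groups of array probes for 1 transcript) whose only annotated symbol was one of these names, which gave 12 probe sets of 8 genes among 22626 probe sets of 12393 named genes and unnamed transcripts. Fbn1 was not analysed here. Total RNA came from the cochleae of DBA/2J males, an inbred mouse strain with early age-related deafness, with 3 samples at 7 weeks of age and 3 samples at 36 weeks, and each sample was hybridised to 1 Affymetrix array. The strain, the sex and the housing were the same at both ages, no agent or engineered allele was named, and the labels did not say whether a sample was 1 animal or a pool, so that p-values measure the spread between these samples, which may be technical. The comparison addresses which transcripts differ between the cochlear samples of the young and the older mice. Hearing was not among the values used here.

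Fibronectin is a large secreted glycoprotein that cells assemble into fibrils through integrin receptors and that then serves as a scaffold for other matrix proteins. Fibrillins bundle into microfibrils, small microfibril-associated glycoproteins decorate these, and elastin is laid down on them with the help of fibulins and cross-linked by lysyl oxidases. Tenascin C is a multi-armed glycoprotein that binds fibronectin and is known for its appearance in remodelling tissue and in the basilar membrane of the cochlea.

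Fibronectin and fibulin-2 transcripts were higher at 36 weeks and fibulin-1 transcripts were lower, while elastin, fibulin-5, the microfibril-associated glycoproteins and tenascin C did not pass the test. Values are linear signals in arbitrary units, and differences are on the scale of log2(signal + 50), 36 weeks minus 7 weeks, each followed by its standard error, from 3 arrays at either age. The 10 of the 12 probe sets with a mean signal above the 40th percentile, 593.6, were tested with limma, and the threshold was a Benjamini-Hochberg adjusted p under 0.05 over all 13575 tested probe sets. Of these 10, 2 rose, 2 fell and 6 did not pass, so that 40% were called beside 34.4% of all tested probe sets. The background was 16.7% for calls in the higher direction and 17.7% in the lower one. The signals of the ages did not overlap for 5 of the 10, beside 47.8% of all tested probe sets. The median log2 difference of the 10 was -0.15, beside 0.02 over all tested probe sets. Neither share stood far from its background, and the results below are therefore those of single genes. Because the RNA came from whole tissue, fewer cells of a type and less RNA per cell cannot be told apart for any of them. Nor can a different share of other tissue in the samples, and airway, brain and skeletal muscle markers also differed between the ages, as given below.

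**Figure D1:**
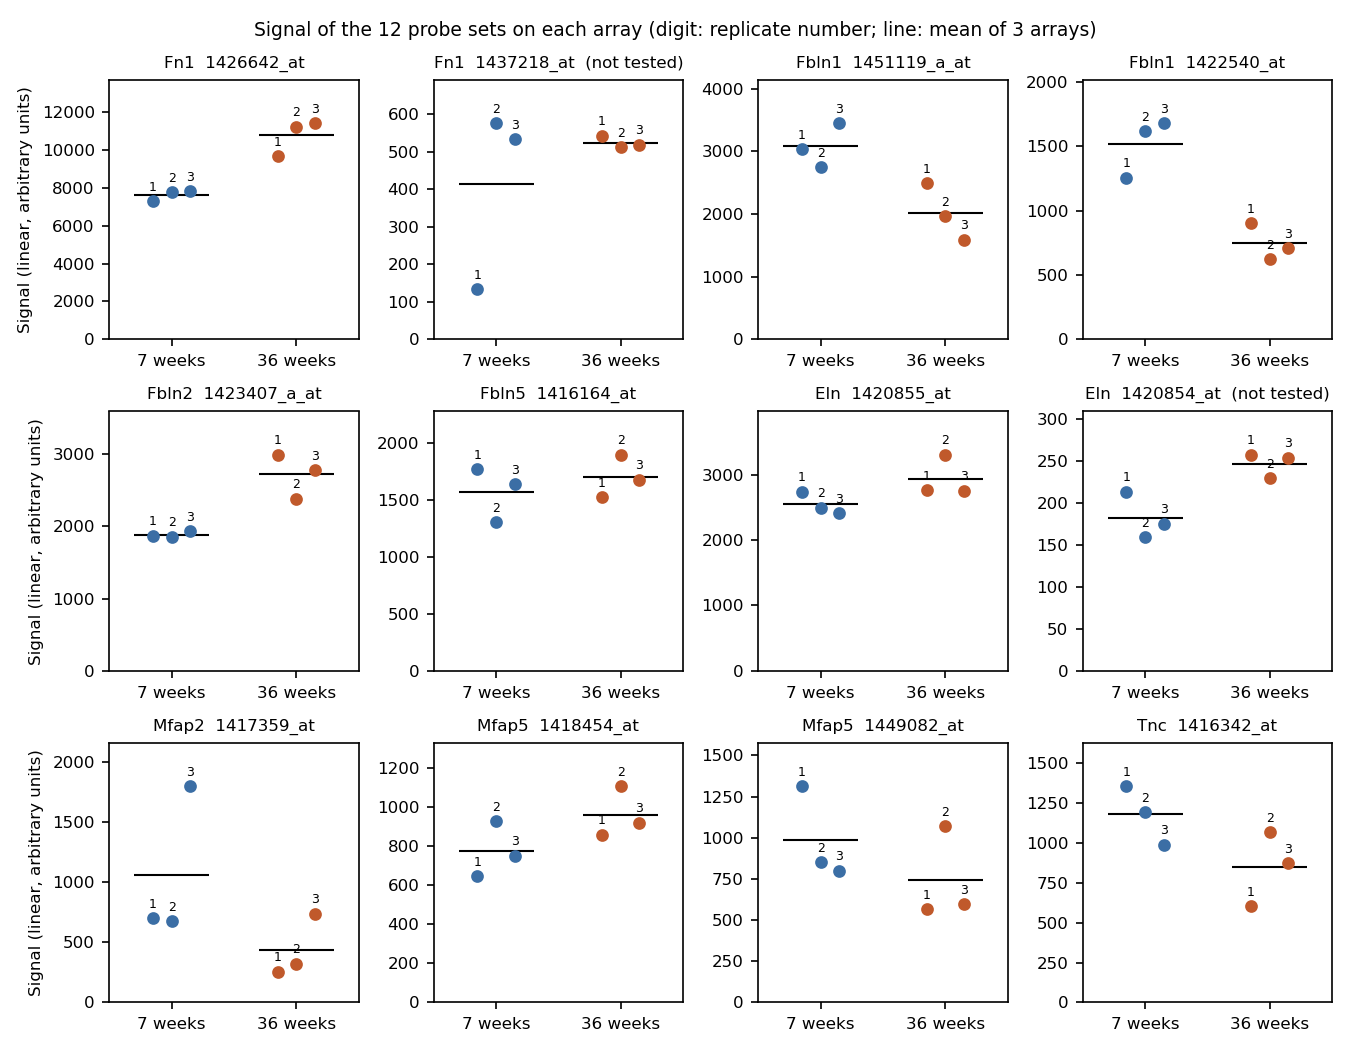
Each panel plots the linear signal (arbitrary units, axis from 0) of 1 probe set on the 3 arrays of 7 weeks (blue) and the 3 arrays of 36 weeks (orange), with the replicate number above each point and a line at the mean. The points of Fn1 (1426642_at) and Fbln2 at 36 weeks lie above all those at 7 weeks and the points of both Fbln1 probe sets lie below, whereas replicate 3 of Mfap2 is high at both ages.

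The bright fibronectin probe set, Fn1 1426642_at, gave signals of 7291, 7770 and 7822 at 7 weeks and of 9668, 11215 and 11394 at 36 weeks. Every array of 36 weeks was above every array of 7 weeks, and the 3 young arrays lay close together. The mean went from 7628 ± 293 to 10759 ± 949 (SD, n = 3), a ratio of 1.41. Fn1 rose by 0.49 ± 0.08 on the log2 scale (95% interval 0.30 to 0.68), with an adjusted p of 0.00129. A further fibronectin probe set, 1437218_at, was too dim to be tested, with signals of 133.7, 575.6 and 532.7 at 7 weeks and of 542.8, 511.5 and 517.9 at 36 weeks. There the ages overlapped, and 1 young array was far below the other 5. In a fit without the filter this probe set had a log2 difference of 0.50 with an adjusted p of 0.522. The rise of fibronectin therefore rests on 1 probe set.

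Tenascin C, Tnc, had signals of 1356, 1192 and 988.1 at 7 weeks and of 603.8, 1069 and 872.2 at 36 weeks. The ages overlapped, since the second older array was above the lowest young one, and in 8 of the 9 possible pairings of ages the older array was lower. The log2 difference of -0.48 ± 0.23 (95% interval -0.98 to 0.03) did not pass, with an adjusted p of 0.132. The sign was opposite to that of Fn1, whose protein tenascin C binds.

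The fibulins are secreted glycoproteins built from calcium-binding repeats that bridge fibronectin, elastin and basement membrane proteins, and they changed in different directions. The promoters of Fbln1, which fell, Fbln2, which rose, and Fbln5, which did not pass, are shown to set the 3 genes side by side. Each is the 250 bases before the most upstream start that RefSeq lists for the gene in build GRCm38.p6, written 5′ to 3′ along the gene. Capitals mark matches on either strand to the motifs searched, which were the TATA box TATAAA, the GC box GGGCGG, the AP-1 site TGANTCA, the cyclic AMP response element TGACGTCA and the SMAD element CAGACA. No 2 matches shared a base in these windows. The Fbln1 window is chr15:85205699-85205948 on the plus strand, the Fbln2 window is chr6:91212514-91212763 on the plus strand and the Fbln5 window is chr12:101819120-101819369 on the minus strand.
Fbln1: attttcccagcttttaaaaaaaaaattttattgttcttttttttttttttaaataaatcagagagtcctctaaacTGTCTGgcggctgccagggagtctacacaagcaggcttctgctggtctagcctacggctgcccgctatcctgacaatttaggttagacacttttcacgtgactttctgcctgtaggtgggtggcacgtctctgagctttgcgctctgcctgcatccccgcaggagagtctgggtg
Fbln2: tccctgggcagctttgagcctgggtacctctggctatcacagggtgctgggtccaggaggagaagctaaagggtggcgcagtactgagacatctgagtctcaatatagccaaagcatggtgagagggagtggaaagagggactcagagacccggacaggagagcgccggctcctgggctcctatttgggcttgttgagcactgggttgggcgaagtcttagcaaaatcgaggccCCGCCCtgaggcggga
Fbln5: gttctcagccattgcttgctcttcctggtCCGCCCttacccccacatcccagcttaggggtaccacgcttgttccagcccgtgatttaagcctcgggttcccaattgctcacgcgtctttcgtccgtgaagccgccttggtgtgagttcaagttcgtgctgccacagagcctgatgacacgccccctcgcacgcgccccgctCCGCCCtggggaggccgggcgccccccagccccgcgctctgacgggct
The Fbln1 window held 1 SMAD element, on the minus strand of the gene, and 0 GC boxes, and 46.4% of its bases were G or C. The Fbln2 window held 1 GC box, starting 16 bases before the start, with 58.8% G or C. The Fbln5 window held 2 GC boxes with 65.2% G or C. In none of the 3 windows was a TATA box, an AP-1 site or a cyclic AMP response element found. Over the windows of 27025 genes, 32.96% held a GC box, 17.08% a SMAD element, 12.98% a TATA box, 6.85% an AP-1 site and 1.6% a cyclic AMP response element. Promoter windows were found for 6 of the 9 genes, and of the other windows that of Mfap2 held 1 SMAD element, that of Tnc 1 TATA box and 1 GC box, and that of Fbn1 1 GC box. A match is a description of the letters only.

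Fbln1, fibulin-1, was measured by 2 tested probe sets, and both fell. The brighter, 1451119_a_at, gave 3040, 2749 and 3451 at 7 weeks and 2494, 1965 and 1590 at 36 weeks. The dimmer, 1422540_at, gave 1259, 1619 and 1681 at 7 weeks and 903.4, 623.5 and 710.8 at 36 weeks. In both, every older array was below every young one. The mean of the brighter probe set was 1.53-fold lower at 36 weeks and fell by 0.62 ± 0.16 on the log2 scale (95% interval of the difference -0.98 to -0.26), with an adjusted p of 0.0140. Without replicate 3 of 7 weeks, the highest young array, its difference was -0.53 and its adjusted p 0.0552. The mean of the dimmer probe set was 2.04-fold lower and fell by 0.98 ± 0.19 (95% interval of the difference -1.41 to -0.55), with an adjusted p of 0.00291. The intervals of the 2 probe sets overlap.

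Fbln2, fibulin-2, which binds fibronectin and elastin precursors, gave 1870, 1857 and 1931 at 7 weeks and 2991, 2384 and 2780 at 36 weeks. The young arrays were nearly equal, with a standard deviation of 39.6, and the lowest older array was above all of them. The mean rose 1.44-fold, from 1886 ± 39.6 to 2718 ± 308 (SD, n = 3). Fbln2 rose by 0.51 ± 0.12 on the log2 scale (95% interval 0.24 to 0.78), with an adjusted p of 0.00776. The interval of Fbln2 thus lay above 0 and those of both Fbln1 probe sets below it.

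Fbln5, fibulin-5, which is needed for elastic fibre assembly, gave 1771, 1304 and 1638 at 7 weeks and 1526, 1896 and 1678 at 36 weeks. The ages overlapped, and the older array was the higher one in 6 of the 9 pairings. The log2 difference was 0.12 ± 0.15 (95% interval -0.22 to 0.46), with an adjusted p of 0.596. The interval spans 0.

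Eln, elastin, which forms the rubber-like core of the fibre, gave 2741, 2495 and 2410 at 7 weeks and 2763, 3303 and 2750 at 36 weeks on probe set 1420855_at. The ages did not overlap, yet the highest young array and the lowest older array were close together. The log2 difference was 0.20 ± 0.12 (95% interval -0.06 to 0.45), and the adjusted p of 0.213 did not pass. The second elastin probe set, 1420854_at, was below the filter, with signals of 213.0, 158.8 and 175.2 at 7 weeks and of 257.1, 229.3 and 253.4 at 36 weeks. It pointed the same way, with all 9 pairings higher at 36 weeks, and in the fit without the filter it had a difference of 0.36 with an adjusted p of 0.509.

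Mfap2 and Mfap5 encode the small glycoproteins of the microfibril. Mfap2 gave 703.2, 678.1 and 1801 at 7 weeks and 255.5, 321.7 and 738.9 at 36 weeks. Replicate 3 stood well above replicates 1 and 2 at each age, and through it the ages overlapped. The standard deviation within an age was 0.76 and 0.72 on the log2 scale, the widest at 36 weeks among the 12 probe sets and at 7 weeks exceeded by that of the dim Fn1 probe set, 0.99. The log2 difference of -1.17 ± 0.44 (95% interval -2.15 to -0.19) was the largest in size of the 10, but its adjusted p of 0.0648 was above the threshold. It was -1.58 with an adjusted p of 0.0217 without replicate 3 of 36 weeks and -0.73 with 0.263 without replicate 3 of 7 weeks. With quantile normalization it passed, at an adjusted p of 0.0488, as it did with centring on the array median, at 0.0429. The labels do not say that replicate numbers pair the samples, and with the number as a block the adjusted p was 0.0116.

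Mfap5 had 2 probe sets annotated to the same transcript record, and their signs differed. Probe set 1418454_at gave 644.4, 926.1 and 750.2 at 7 weeks and 856.0, 1105 and 917.6 at 36 weeks, a log2 difference of 0.30 ± 0.21 with an adjusted p of 0.299. Probe set 1449082_at gave 1313, 851.1 and 800.0 at 7 weeks and 564.7, 1069 and 598.0 at 36 weeks, a difference of -0.41 ± 0.28 with an adjusted p of 0.296. The ages overlapped in both. No direction can be given for Mfap5.

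**Figure D2:**
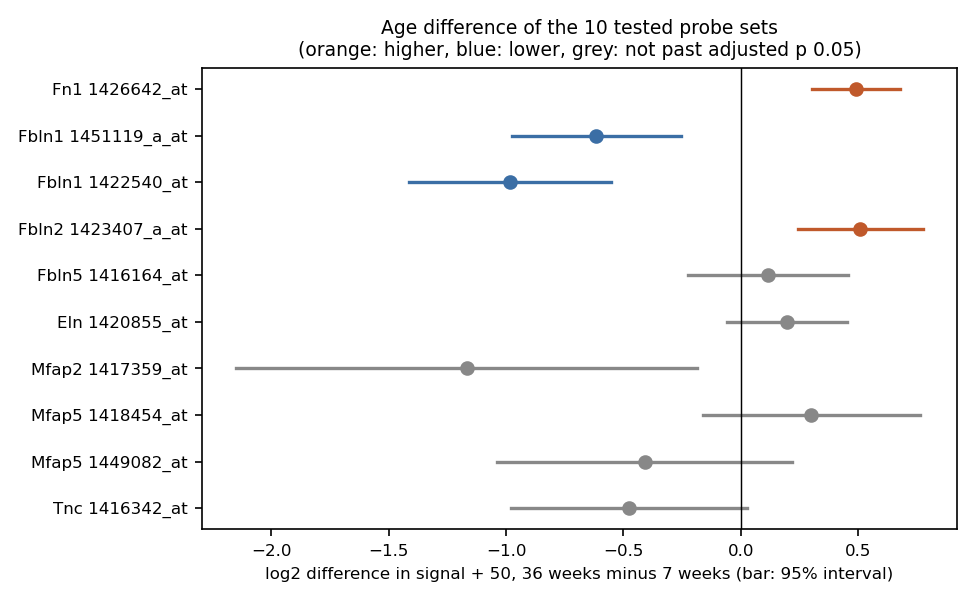
The plot gives the log2 difference of signal + 50, 36 weeks minus 7 weeks, of the 10 tested probe sets as points with 95% intervals from limma (n = 3 arrays per age). The intervals of Fn1 and Fbln2 (orange) lie above 0 and those of both Fbln1 probe sets (blue) below 0, and the 6 grey probe sets did not pass, among them Mfap2 with the widest interval.

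The likeness of profiles was described by the root mean square difference over the 6 arrays between log2 values, each centred on the gene's own mean, against 8547 other genes. The nearest profile to Fn1 was that of Bean1, at 0.039, and the nearest to Fbln2 was that of Acsl5, at 0.043. For the brighter Fbln1 probe set it was Nmd3, at 0.066, and Emcn, a sialomucin of endothelial cells, was among the 3 nearest at 0.10. The second nearest to Eln was Tgfbi, another secreted matrix protein, at 0.035, by a probe set of the x_at type. This likeness holds for that probe set only, since others of Tgfbi rose by 0.88 and 0.44 and passed. The nearest profile to Mfap2 was that of Tlr3, at 0.31. The measure is not scaled for spread, so a widely spread profile such as that of Mfap2 tends to lie further from others. Tlr3 gave 758.3, 697.2 and 1165 at 7 weeks and 317.9, 226.7 and 607.5 at 36 weeks, so its replicate 3 was also the highest at each age.

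More of the other matrix assembly genes fell than rose. Over 6 lists of partners, receptors, growth factors and proteases, 62 genes were tested by their brightest probe set, of which 11 rose and 21 fell, with a median of -0.11. Among all 8555 tested genes, 35.1% passed, 17.5% higher and 17.6% lower, with a median of 0.02. Of the fibulins outside the group only Efemp1, fibulin-3, was tested. It gave 1940, 2140 and 2016 at 7 weeks and 673.1, 815.3 and 573.7 at 36 weeks, without overlap, and fell by 1.51 ± 0.17 on the log2 scale with an adjusted p of 6.35e-05. Fbln7 was below the filter.

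In the microfibril and elastic fibre assembly list 1 of 13 rose and 3 fell, with a median of 0.11. Ltbp3, a latent TGF-beta binding protein of microfibrils, fell by 0.70 ± 0.11 on its brightest probe set, while the other tested one had a difference of -0.13 with an adjusted p of 0.403. Tgm2, a transglutaminase that cross-links fibronectin, fell by 0.77 ± 0.16 on its brightest probe set, an x_at type that may also bind other genes. Of its other 4 tested probe sets, 2 of the x_at type fell by 1.27 and 0.82, and 2 had differences of 0.20 and 1.41 without passing. Lox, the lysyl oxidase that cross-links elastin, fell by 0.52 ± 0.17 with an adjusted p of 0.0391, and Loxl3, a relative, rose by 0.42 ± 0.14 with 0.0361. The calls of Lox and Loxl3 were lost without the filter, at adjusted p of 0.0689 and 0.0565. Both were also lost when some single arrays were left out, at up to 0.136 for Lox and 0.116 for Loxl3. Loxl1, the relative that acts with fibulin-5, had a difference of -0.31 with an adjusted p of 0.109.

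Of 11 matricellular genes, proteins that modulate how cells bind the matrix, 2 rose and 6 fell, with a median of -0.75. Ccn1 and Ccn2, which respond to growth factors and load, fell by 1.66 ± 0.20 and 1.44 ± 0.17, and Sparcl1 fell by 0.96 ± 0.08. The Ccn1 value comes from an x_at probe set, and its other tested probe set had a difference of -0.71 with an adjusted p of 0.0503. Postn, periostin, which binds tenascin C and fibronectin, fell by 0.92 ± 0.18. The members that rose were Thbs1, thrombospondin-1, by 0.62 ± 0.15 and Ecm1 by 0.70 ± 0.16. The other tested Thbs1 probe set had a difference of 0.31 with an adjusted p of 0.246. Tnxb, another tenascin, had a difference of 0.10 with an adjusted p of 0.751. Tgfbi did not pass on its brightest probe set, with a difference of 0.15 and an adjusted p of 0.290. Other Tgfbi probe sets rose by 0.88 and 0.44, with 0.000336 and 0.0119, and a further one had 0.34 without passing.

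Among the receptors through which cells hold fibronectin, 3 of 10 integrin and syndecan genes fell and 0 rose, with a median of -0.12. Sdc4, the syndecan that acts with integrins on fibronectin, gave 3994, 3257 and 3907 at 7 weeks and 1767, 1726 and 1402 at 36 weeks, and fell by 1.17 ± 0.13 with an adjusted p of 7.54e-05. Itgav, the integrin alpha v chain, fell by 0.85 ± 0.10, while a dimmer probe set had a difference of 0.17 without passing. Sdc2 fell by 0.69 ± 0.15, and by 1.29 on its other tested probe set. Itga5 and Itgb1, the chains of the classical fibronectin receptor, had differences of 0.02 ± 0.39 and -0.18 ± 0.10 and did not pass, although a dimmer Itgb1 probe set fell by 0.38 with an adjusted p of 0.0495.

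TGF-beta signalling, known to induce fibronectin and elastin, had 1 of 14 genes rising and 6 falling, with a median of -0.34. Tgfb1 gave 1301, 1086 and 1206 at 7 weeks and 2073, 2163 and 1957 at 36 weeks, and rose by 0.76 ± 0.13 with an adjusted p of 0.00129. Tgfb2 fell by 1.98 ± 0.27, Bmp7 by 1.10 ± 0.17 and Tgfbr2, the type II receptor, by 0.94 ± 0.09. Tgfb3 had a difference of 0.26 with an adjusted p of 0.529.

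Of 13 enzymes that can degrade elastin or fibronectin 7 rose and 2 fell, with a median of 0.38. By the brightest probe set of each gene, the rises were led by Prtn3, Mmp8, Ctsg and Elane, neutrophil proteases that rose by 3.98 ± 0.09, 3.87 ± 0.12, 3.80 ± 0.31 and 3.31 ± 0.09. These 4 and Mmp9 are also in the granulocyte list below. Mmp9 rose by 2.05 ± 0.11 on its brightest probe set and by 3.99 on its other tested one. Plat, tissue plasminogen activator, fell by 0.64 ± 0.20, with an adjusted p of 0.0571 without the filter. Without replicate 3 of 7 weeks its adjusted p was 0.104. Mmp14, a membrane-bound protease, fell by 0.62 ± 0.13. Mmp2 did not pass on its brightest probe set, with a difference of -0.46 and an adjusted p of 0.269. On its other tested probe set it fell by 1.16, with 1.41e-05. Mmp12, the macrophage elastase, was below the filter.

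**Figure D3:**
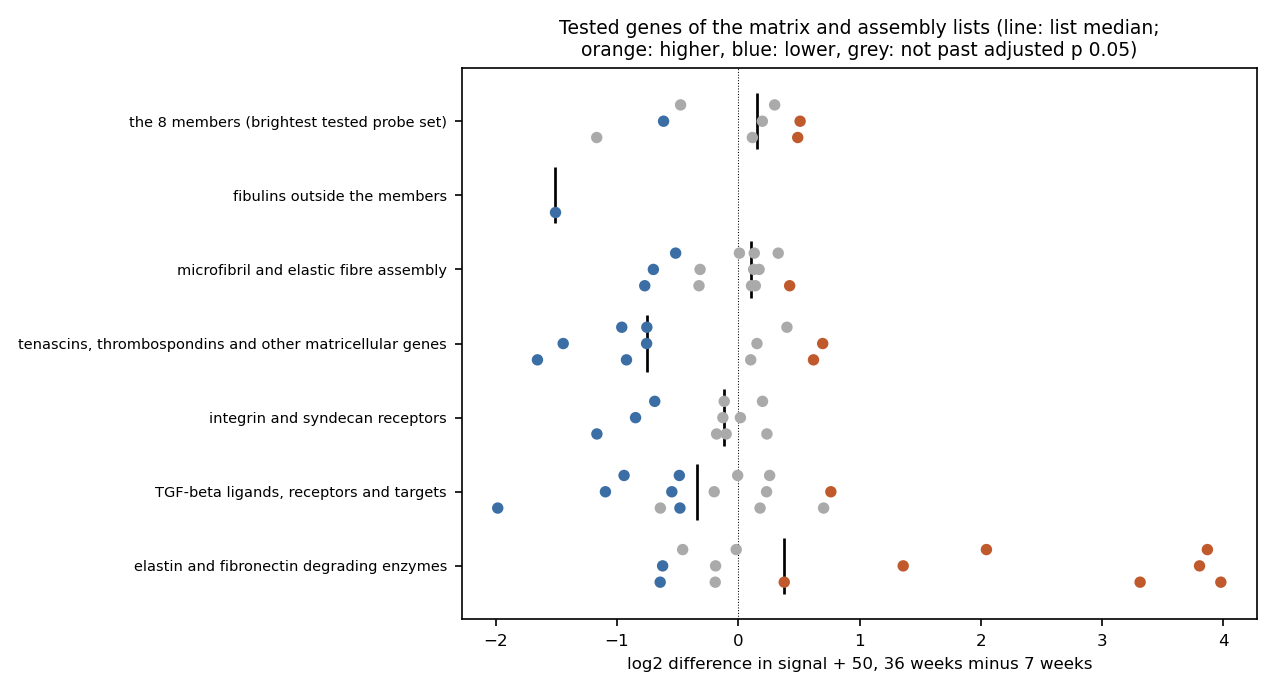
Each point is the log2 difference of signal + 50, 36 weeks minus 7 weeks, of 1 tested gene by its brightest probe set, with the 8 measured members on top and the 6 other lists below, and a line at each list's median. Among the integrin and syndecan receptors 0 of 10 genes rose, and the highest points are the neutrophil proteases between 3.31 and 3.98.

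Markers of several cell types moved on the same arrays. Coch and Otos, which mark cochlear fibrocytes, were bright at both ages, with mean signals of 82144 and 73912 at 7 weeks and of 21556 and 13801 at 36 weeks. In the fibroblast list, cells that make these matrix proteins, 7 of 9 fell and 1 rose, and the summed signal went from 93164 to 101205 at 7 weeks to between 58516 and 63799 at 36 weeks. The member that rose was Col1a1, by 0.53 ± 0.12, while its other tested probe set had a difference of 0.28 with an adjusted p of 0.0808. Among those that fell, the other tested probe sets of Col1a2, Col3a1 and Pdgfra did not pass. Their differences were -0.06, -0.55 and -0.20, with adjusted p of 0.682, 0.179 and 0.645. Of the spiral ligament fibrocyte list 10 of 10 fell, with sums of 264409 to 273156 at 7 weeks and of 66003 to 67832 at 36 weeks. Whether the genes of this list are limited to those fibrocytes was not tested. In the vascular smooth muscle list, another source of elastin and fibulins, 2 of 5 fell and 0 rose, with sums of 22415 to 24780 and of 14630 to 15748. In the endothelial list 1 of 9 rose and 0 fell, with sums of 11171 to 12317 and of 11835 to 13640. Chondrocyte markers had 5 of 7 lower and 2 higher, with sums of 14726 to 15753 and of 9321 to 10425, and osteoblast markers 4 of 6 lower, with sums of 8987 to 11047 and of 3962 to 4766.

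Granulocyte and platelet markers were higher at 36 weeks. All 12 tested granulocyte genes rose, with sums of 49883 to 55314 at 7 weeks and of 700615 to 746045 at 36 weeks. Of the macrophage list 4 of 9 rose and 5 did not pass, with a median of 0.34 and with sums of 44045 to 45205 and of 177534 to 183056. Most of that sum was Lyz2, lysozyme, whose mean signal went from 23232 to 146757, while Cd68, Csf1r, Adgre1, C1qa and C1qb did not pass. Csf1r and C1qa were close to the threshold, at adjusted p of 0.0550 and 0.0503. Another tested Csf1r probe set rose by 0.46 with 0.0187, and a further one had a difference of 0.21 without passing. Of the platelet and megakaryocyte list, cells that store fibronectin, 4 of 5 rose, with sums of 10181 to 11308 and of 22615 to 26215. Liver-secreted plasma proteins, whose makers also secrete fibronectin, had sums of 12557 to 14362 and of 4232 to 5566, with 2 of 7 genes tested. That sum was mostly Ttr, transthyretin, which fell from a mean signal of 11779 to 2924, whereas Alb, albumin, had 690.9 and 1051 and did not pass, with an adjusted p of 0.111. The mean signals of the fibrinogen chains Fga, Fgb and Fgg were at most 191.0. Of the brain and cerebellum list 7 of 8 rose and Snap25 did not pass, with sums of 42020 to 43503 and of 92371 to 95790. Among the 7, Gfap was closest to the threshold, at an adjusted p of 0.0402, and lost its call with quantile normalization, at 0.0511. Its other tested probe set rose by 0.42 with 0.0246. Of the airway and mucus list 5 of 7 rose, Krt14 fell by 1.38 and Krt5 did not pass, with sums of 151218 to 164083 and of 517413 to 559416. Another tested Krt14 probe set had a difference of -1.49 with an adjusted p of 0.0278, and a further one had 0.06 with 0.866. Of the skeletal muscle list 9 of 9 fell, with sums of 273798 to 292083 and of 97034 to 101008. No marker was listed at 0. The part of these shifts in the differences of Fn1, Fbln1 and Fbln2 was not tested.

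**Figure D4:**
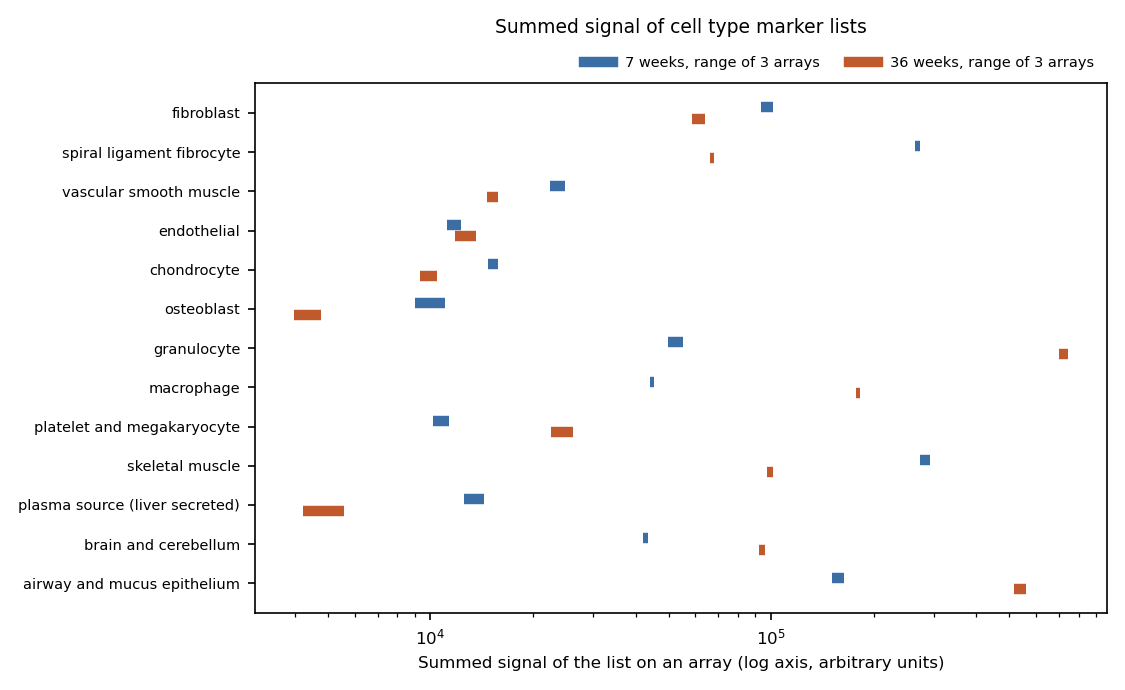
Bars span the lowest to the highest summed signal (log axis, arbitrary units) of each marker list over the 3 arrays of 7 weeks (blue) and of 36 weeks (orange), each gene by its brightest probe set. The ages overlap only in the endothelial list, and the granulocyte list moved furthest, from at most 55314 to at least 700615.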

How the data were processed

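Cochlear RNA was labelled with biotin and hybridised to 6 single-colour arrays, per the labels' protocols. What the authors deposited are linear intensity values, scaled, as their distribution shows, to nearly equal trimmed means (1490 to 1493 on the 6 arrays). How probes were summarised was not given in the sources used, and the absolute scale is unknown. Array medians ran from 766.3 to 859.4, and the number of arrays limits the precision. Names came from the platform annotation, single symbols only (20380 of 22626).

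Signals were taken as log2(signal + 50), which understates changes of dim probe sets. Probe sets above the 40th percentile of mean signal were tested unpaired and two-sided in limma 3.58.1 (lmFit, eBayes with an intensity trend; R 4.3.3), with Benjamini-Hochberg adjustment over all tested probe sets. The fit was tested on simulated data. An exact permutation test of 3 against 3 arrays cannot go below 0.1 and was not used. Promoters were read with Python 3.11.15 and plots made with matplotlib 3.10.9.

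Every member probe set is given. From the other lists the text names up to 4 called genes with the largest differences, and others for their role. The members and lists were chosen with earlier results of these data known. Alternatives were offsets of 1 and 16, quantile normalization, median centring, no filter or the 60th percentile, no trend, a replicate block and each array left out. A filter on the mean log2 value was added after seeing the data. Same-numbered arrays of the ages did not deviate together (correlations of 0.05, -0.01 and -0.002), so the numbers were not treated as pairs.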

Additional observations from a re-analysis of the deposited data

How the results depend on the processing

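Fn1 (1426642_at) and Fbln2 kept their direction and passed under all 15 alternatives, with log2 differences of 0.39 to 0.57 and 0.41 to 0.60. The dimmer Fbln1 probe set passed in 14 of the 14 that tested it and the brighter one in 14 of 15. The count of member probe sets that fell, 2, was 1 with the filter at the 60th percentile, which leaves out the dimmer Fbln1 probe set, and ran from 1 to 3 as each array was left out. Mfap2 passed in 4 of 14. Fbln5, called in none, ran from -0.008 to 0.21. With the replicate block, 5 member probe sets passed in place of 4, Mfap2 being the one added, and 4375 probe sets in all in place of 4665. Centring on the array median shifted the median of all tested probe sets by -0.10 and gave 1738 higher and 3088 lower calls in place of 2267 and 2398. Under it Loxl3 lost its call and 0 of the 13 assembly genes rose, and the endothelial median changed sign, from 0.05 to -0.05. Quantile normalization turned Bpifa1 of the airway list from 0.41 to -0.03. With the filter on the mean log2 value 4558 probe sets passed, 4 of them members.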

Other observations

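Among the 13575 tested probe sets, 2 had replicate 3 at least 2-fold above the mean of the other arrays of its age at both ages, and Mfap2 was one of them. For replicate 1 the count was 4 and for replicate 2 it was 2.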
